A study of Mus musculus with 75 samples.

Results

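Epididymal white fat of C57 wild type mice was profiled by RNA-seq on a chow diet and on a high-fat diet (HFD), with 4 libraries on each diet. These 8 libraries, of 75 in the series, were chosen by their genotype, diet and tissue labels, and all genes are described across them. The mice carried the C57BL6/J nuclear genome together with C57 mitochondrial DNA (C57n:C57mt). All were weaned onto chow. They then either stayed on chow or were moved to HFD at 6 weeks of age, until fat was collected at 12 to 13 weeks. The epididymal depot (eWAT), beside the testis and epididymis, was taken by the study as visceral fat, and total RNA was extracted with a column kit. The groups used for comparison were the line with the same nuclear genome and C3H mitochondrial DNA (C57n:C3Hmt, 7 epididymal libraries), the C3H/HeN wild type (C3Hn:C3Hmt, 7 libraries), each fed the same chow or HFD, and subcutaneous inguinal fat (iWAT) of the C57 wild type (8 libraries). The remaining line, C3H nuclear with C57 mitochondrial DNA (C3Hn:C57mt, 7 epididymal libraries on the same diets), entered the fits over all epididymal or all fat libraries and was not compared. The series asks whether mitochondrial DNA changes how fat responds to diet, and the wild type response described here is its reference.

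White adipocytes store triglyceride in a single large droplet, take up glucose and fatty acids under insulin, make fatty acids from glucose, and release fatty acids when adrenergic signals activate lipases. In mice fed a high-fat diet the epididymal depot enlarges, and it is known for gathering macrophages around dying adipocytes. These lipid-associated macrophages take up lipid, carry the receptor Trem2 and fill with lysosomes, while the matrix around adipocytes is rebuilt. Whole tissue was sequenced, so more cells of a type and more RNA per cell cannot be told apart in any value below.

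Total counts ran from 22.14 to 27.19 M per chow library and from 16.65 to 22.65 M per HFD library. All 4 chow libraries came from one sequencing run. Of the HFD libraries, 3 came from a second run and library 4 from yet another, as the library titles give them. Diet and run therefore cannot be told apart, no run holds both diets, and no within-run value can be given. Between 81.63% and 86.16% of reads mapped to the transcriptome in chow libraries and between 87.24% and 90.42% in HFD libraries. The G+C content of mapped reads was 49.24% to 49.48% on chow, 48.43% to 48.66% in HFD libraries 1 to 3 and 49.56% in HFD library 4. The part of these differences in the results was tested only as far as a correction for gene G+C content and length allows, and counts after that correction are given beside many of the gene groups.

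Chow library 3 stood apart from the other 7. Markers of epididymal epithelium, the lining of the sperm-storing duct next to this depot, summed to 18500 CPM (read counts brought to a common library size by TMM, a scaling for library composition) in chow library 3. They summed to 93.03, 19.97 and 23.39 CPM in chow libraries 1, 2 and 4, and to 3.935 to 10.56 CPM in the HFD libraries. Crisp1, an epididymal secretory protein, had 7087 CPM in chow library 3, 1.085 to 10.18 CPM in the other chow libraries and 0 in every HFD library. In the same library the summed adipocyte identity genes stood at 10530 CPM, against 38730 to 42920 CPM in the other chow libraries and 37320 to 46570 CPM on HFD. Markers of brown fat (568.8 CPM against 95.93 to 109), keratinocytes and lymphocytes were also raised in it. Adipocyte markers were thus abundant in 7 of the 8 libraries, as the tissue label requires, and about 4 times lower in chow library 3. Gene groups are therefore given from a pair of fits, and a single gene from the 7-library fit where no fit is named. The 29-library fit holds all epididymal libraries of the series, including all 8 of this genotype. The 7-library fit holds this genotype alone without chow library 3, a choice made after the data were seen.

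**Figure D1:**
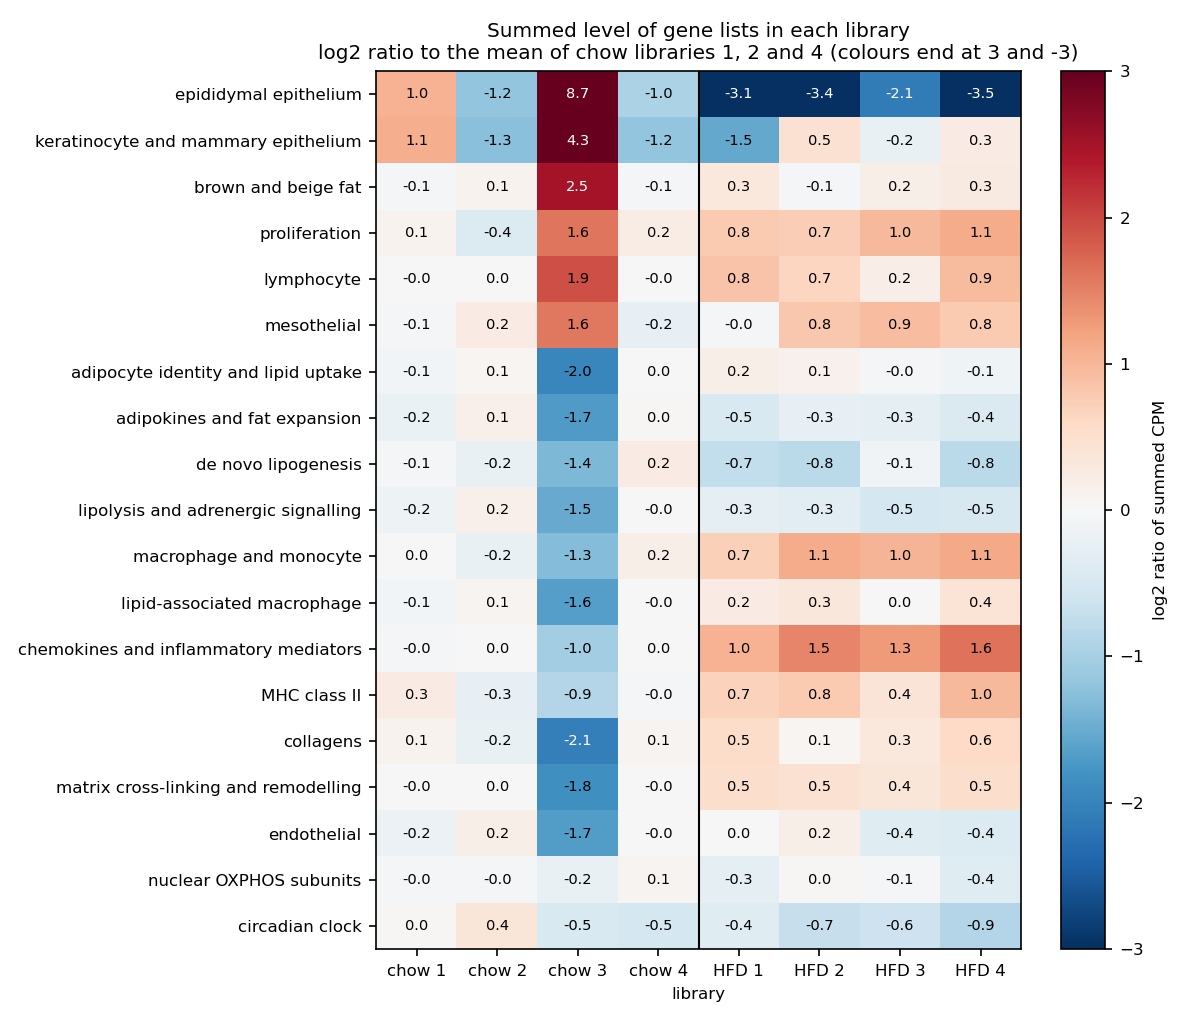
Summed level of 19 gene lists in each of the 8 libraries (columns), as the log2 ratio of summed CPM to the mean of chow libraries 1, 2 and 4; red is higher, blue is lower. Chow library 3 departs from the other chow libraries in nearly every list, with epididymal epithelium at 18500 CPM, while the macrophage and monocyte list and the chemokine list are higher in all 4 HFD libraries than in any chow library.

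In the 29-library fit, 3003 of 17781 genes tested, or 16.9%, differed between the diets (edgeR's quasi-likelihood test, Benjamini-Hochberg adjusted p under 0.05): 1190 were higher on HFD (6.69%) and 1813 lower (10.2%). Without chow library 3 the same fit called 844 genes (4.85%), with 2.91% of genes higher and 1.94% lower. The 7-library fit called 4300 of 15291 genes (28.1%), 2387 higher (15.6%) and 1913 lower (12.5%), of which 674 and 586 changed at least 2-fold. The median log2 fold change over all genes was -0.11 in the 29-library fit and -0.01 in the 7-library fit. The fits shared most rises and fewer falls. Of the 1190 genes higher in the 29-library fit, 1042 (87.6%) were also higher in the 7-library fit, which is 43.7% of the rises there. Of the 1813 lower genes, 815 (45%) were also lower, or 42.6% of the falls there, and 7 were called higher instead. A further 534 were too low to be tested in the 7-library fit, which leaves out chow library 3 and the other lines. The plot of both fits shows the falls that only the library with epididymal RNA carried as points far below the diagonal. After correction for gene G+C content and length, the 29-library fit called 1671 genes, 431 higher (2.88% of genes with a value) and 1240 lower (8.29%), and the 7-library fit 2887, 1538 higher (11.7%) and 1349 lower (10.2%). In the 7-library fit, 890 rises and 629 falls were called again whichever of the 7 libraries was left out. Over all genes and 8 libraries, the diets did not overlap for 13.7% of genes with HFD higher and 11.4% with HFD lower. Without chow library 3 these shares were 21.9% and 17.6%.

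**Figure D2:**
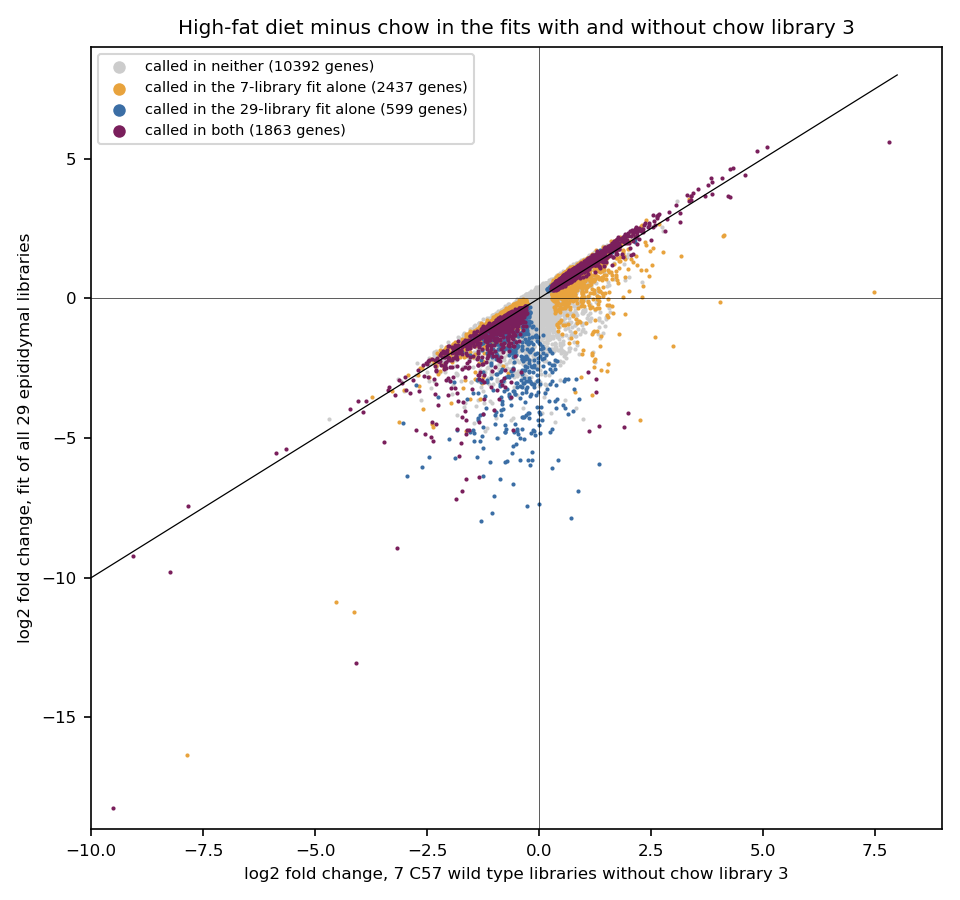
Log2 fold change (HFD minus chow) of 15291 genes in the 7-library fit (x axis) and the 29-library fit (y axis); colours give the fit in which a gene was called and the line marks equal values. Genes called in both fits (1863) lie close to the line on the side of the rises, and many genes called only in the 29-library fit (599) lie far below it. The figure was drawn from rounded adjusted p, so its counts can differ slightly from those in the text.

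Genes of macrophages and of acute inflammation were among the 12 largest rises whose groups did not overlap. Gpnmb, a membrane glycoprotein of lysosome-rich macrophages (chromosome 6, 48986517 to 49020928, plus strand, mm9), stood at 17.78, 20.67, 23.03 and 20.85 CPM in chow libraries 1 to 4. On HFD it stood at 162.6, 197.2, 99.06 and 590.7 CPM. All HFD libraries were above all chow libraries, chow library 3 was like its group, and HFD library 4 was highest. Gpnmb rose by 3.71 ± 0.60 (log2, SE), or 13.1-fold, in the 7-library fit (adjusted p = 0.00502) and by 3.67 ± 1.09 in the 29-library fit (adjusted p = 0.0254).

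Mmp12, the macrophage metalloelastase (chromosome 9, 7344381 to 7369499, plus strand), had 18.92, 19.13, 9.267 and 33.87 CPM on chow and 177.6, 237.1, 139.6 and 474.1 CPM on HFD. Its groups did not overlap, and the rise was 10.5-fold (log2 3.40 ± 0.46, adjusted p = 0.00321; 0.0169 in the 29-library fit). Saa3, an acute-phase protein made by inflamed fat, had 3.876, 3.112, 1.456 and 4.753 CPM on chow and 67.52, 52.04, 43.24 and 72.97 CPM on HFD. The HFD libraries lay close together and far above chow, a 14.7-fold rise (log2 3.87 ± 0.24, adjusted p = 0.000682; 0.0182 in the 29-library fit). Atp6v0d2, a subunit of the lysosomal proton pump found in macrophages and osteoclasts, had 2.508, 2.136, 8.373 and 3.818 CPM on chow and 36.49, 40.49, 27.28 and 109.9 CPM on HFD. It rose 18.5-fold (log2 4.21 ± 0.55, adjusted p = 0.00291; 0.0483 in the 29-library fit), and chow library 3 was the highest of its group.

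The other genes among the 12 largest rises were at or under 7 CPM on chow. Ubd, an inflammation-induced ubiquitin-like protein, had 6.536, 5.898, 1.787 and 3.032 CPM on chow and 75.42, 41.03, 51.64 and 120.4 CPM on HFD (13.7-fold, adjusted p = 0.00228). Ear11, a secreted ribonuclease of eosinophils and macrophages, had 1.71, 0.3715, 0.1324 and 2.695 CPM on chow and 21.17, 47.04, 62.47 and 63.02 CPM on HFD (28.95-fold, adjusted p = 0.00228). Tph2, a serotonin synthesis enzyme usually found in neurons, had 0.456, 0.5573, 0.09929 and 0.7111 CPM on chow and 10.34, 6.176, 9.528 and 19.45 CPM on HFD (19.2-fold, adjusted p = 0.0019). Their groups did not overlap, which the choice of the 12 required. Gpr50, an orphan receptor, was close to absent on chow (0.038, 0, 0.695 and 0.07486 CPM) and had 5.839, 5.639, 3.281 and 27.1 CPM on HFD (adjusted p = 0.00422). Its fitted fold depends on the prior count and is not given. Mrgprg (34.4-fold), F7, the coagulation factor VII gene (10.96-fold), Vsig8 (14.7-fold) and the retinol dehydrogenase relative Dhrs9 (10.6-fold) rose from under 2 CPM in every chow library. Serpinb9b, a serine protease inhibitor outside these 12, had 0.2322 to 0.7486 CPM on chow and 1.753 to 4.891 CPM on HFD (5.93-fold, adjusted p = 0.00909). All 12 of the largest rises were called in the 7-library fit whichever library was left out. In the 29-library fit without chow library 3, Saa3 (adjusted p = 0.0769), Tph2 (0.05, just over the threshold), Ubd (0.0546), F7 (0.0705), Gpnmb (0.0838), Mmp12 (0.0739) and Atp6v0d2 (0.0946) were no longer called.

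**Figure D3:**
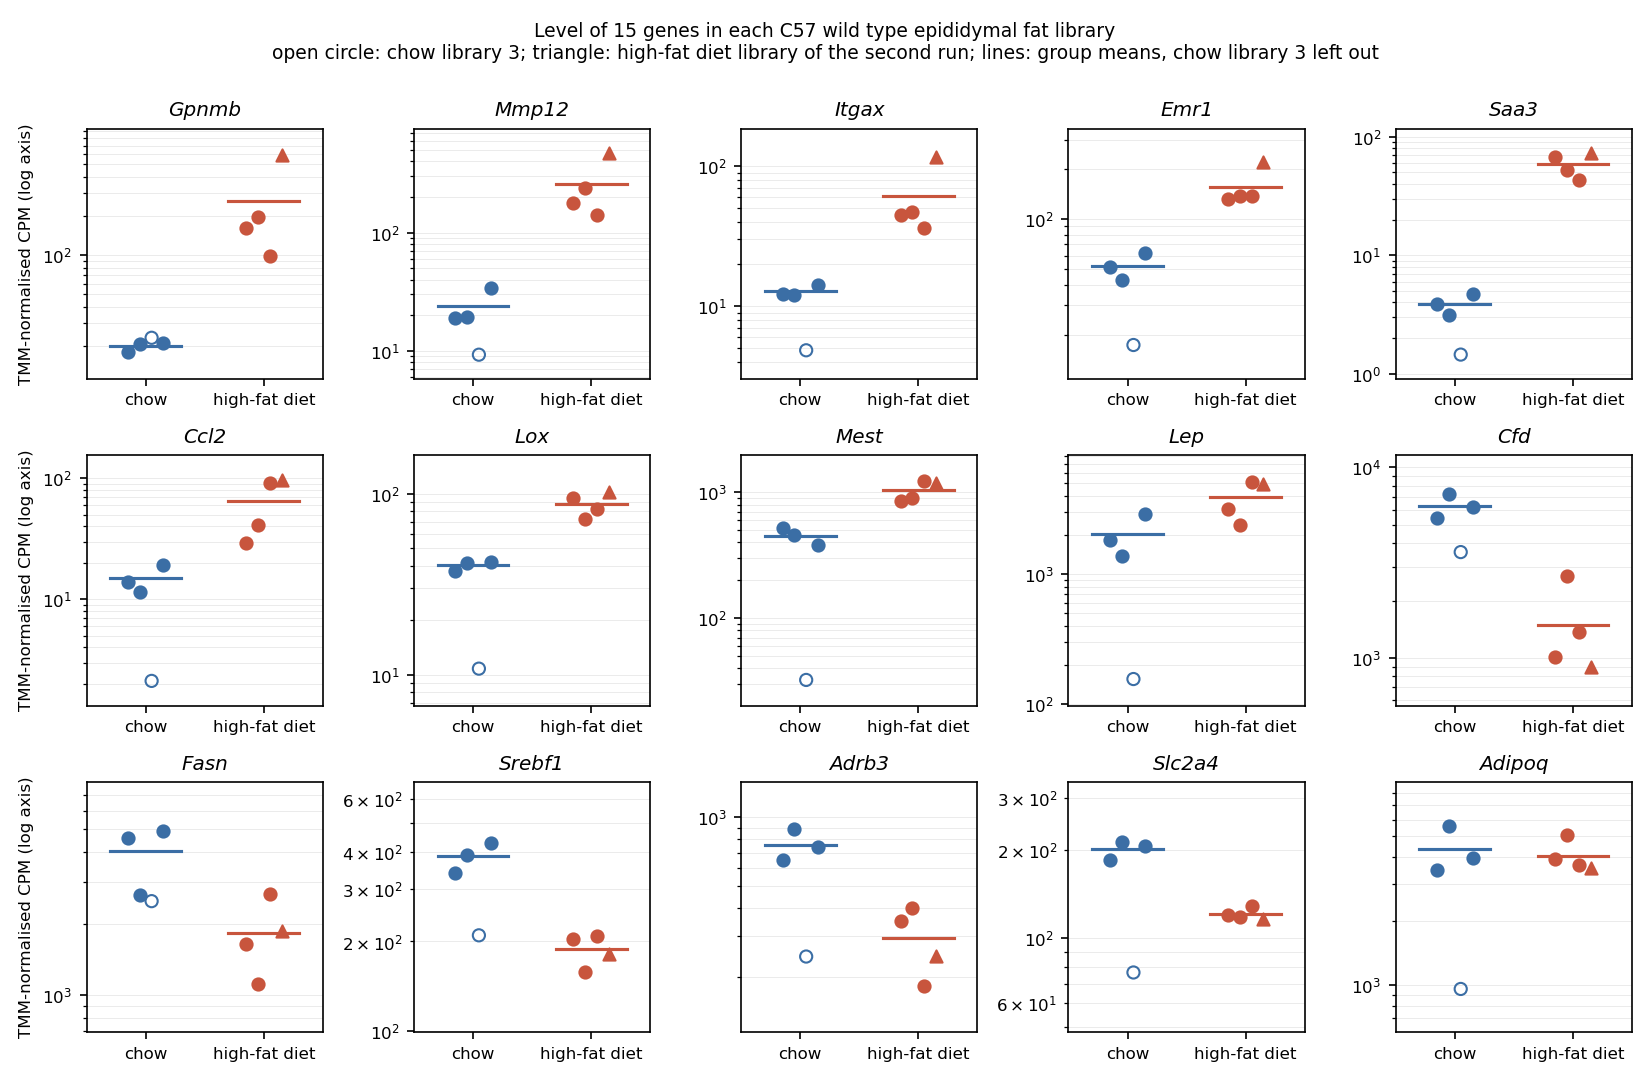
Level of 15 genes in each library (points, CPM on a log axis), with chow library 3 as an open circle, HFD library 4, from its own run, as a triangle, and lines at group means without chow library 3. Gpnmb, Mmp12, Itgax, Emr1, Saa3, Ccl2, Lox and Mest are higher in all HFD libraries, Cfd, Srebf1, Adrb3 and Slc2a4 are lower in all HFD libraries than in chow libraries 1, 2 and 4, and Adipoq and Lep overlap.

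Macrophage and monocyte genes rose as a group. In the 7-library fit 23 of 30 tested members were higher and 0 lower, against 15.6% of all genes higher, and the median log2 fold change was 0.79 against -0.01 for all genes. In the 29-library fit 7 of 30 were higher (6.69% of all genes) and 0 lower, with a median of 1.07, which became 1 of 30 (2.91% of all genes) without chow library 3. The summed level of the list was 2978, 2533, 1185 and 3304 CPM on chow and 4856, 6381, 5975 and 6505 CPM on HFD, so the diets did not overlap with or without chow library 3. Emr1, which encodes the macrophage marker F4/80, had 51.34, 42.5, 17.31 and 61.94 CPM on chow and 132.5, 136.7, 137.7 and 219.1 CPM on HFD. Its HFD libraries were at least 2 times the highest chow library, and the rise was 2.96-fold (adjusted p = 0.00339; 0.0351 in the 29-library fit). Ccr2, the receptor by which blood monocytes are recruited, had 30.44, 28.19, 10.06 and 32.11 CPM on chow and 91.78, 96.23, 119.1 and 128.2 CPM on HFD. That was a 3.53-fold rise (adjusted p = 0.00128; 0.0121 in the 29-library fit). Genes of tissue-resident macrophages were among the risers as well: Lyve1 rose 2.25-fold (adjusted p = 0.00729), Mrc1 1.78-fold (adjusted p = 0.0176) and Cd163 1.71-fold (adjusted p = 0.0119). Timd4, another resident marker, had a log2 difference of -0.56 ± 0.19 that did not pass (adjusted p = 0.0605). Mpeg1, a pore-forming protein of phagocytes, rose 4.87-fold (adjusted p = 0.00217), and Fcgr2b, the inhibitory Fc receptor, 2.36-fold (adjusted p = 0.00217). The summed adipocyte identity genes overlapped between diets, as given above. The sums of some other adipocyte lists were lower on HFD than in chow libraries 1, 2 and 4, while those of lipogenic and insulin signalling genes overlapped. Lipolysis and adrenergic genes summed to 7871, 9749, 3068 and 8669 CPM on chow and to 6077 to 7313 CPM on HFD, and droplet genes to 16150, 21230, 5570 and 17380 CPM on chow and to 13390 to 14970 CPM on HFD. The part of the adipocyte share in the macrophage values was not tested.

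Most lipid-associated macrophage genes were higher too. Of 24 tested members 18 were higher and 1 lower in the 7-library fit (median log2 1.53), against 15.6% higher and 12.5% lower among all genes. Like the other lists, this one was chosen with earlier results of these data known. It holds Gpnmb, Mmp12, Atp6v0d2 and Dhrs9 of the 12 largest rises, so its count is not separate from them. The 29-library fit had 9 higher and 0 lower (median 1.78), against 6.69% and 10.2%, and without chow library 3 there was 1 in each direction. The summed level was 14560, 16450, 4965 and 15480 CPM on chow and 18290, 19540, 15580 and 20760 CPM on HFD. HFD library 3 lay within the chow range. Trem2, the lipid-sensing receptor that names this state, had 6.004, 3.669, 4.071 and 8.309 CPM on chow and 19.83, 27.07, 20.72 and 66.95 CPM on HFD. HFD library 4 stood far above the other 3, and all 4 were above chow. The rise was 5.47-fold (log2 2.45 ± 0.49, adjusted p = 0.00986; 0.0448 in the 29-library fit). Itgax, encoding the integrin CD11c, had 12.12, 11.98, 4.832 and 14.22 CPM on chow and 45.07, 47.47, 36.31 and 116.4 CPM on HFD (4.71-fold, adjusted p = 0.00649; 0.0389 in the 29-library fit), again with library 4 highest. Both genes kept their call in the 7-library fit without HFD library 4. The cathepsin Ctss rose 4.16-fold (adjusted p = 0.00228), the lysosomal acid lipase gene Lipa 3.08-fold (adjusted p = 0.00403), Lgals3 2.98-fold (adjusted p = 0.00743) and the tetraspanin Cd9 by 0.63 ± 0.15 on the log2 scale (adjusted p = 0.02). Cd36, a fatty acid translocase shared with adipocytes, rose 1.35-fold (adjusted p = 0.0341), but its log2 difference was 0.00 after correction for G+C content and length. Spp1, osteopontin, overlapped between diets, with 0.3971 to 6.118 CPM on chow and 5.17 to 13.27 CPM on HFD (adjusted p = 0.107). The tetraspanin Cd63 (log2 -0.02 ± 0.12) did not pass either. Apoe, a lipid carrier made by both macrophages and adipocytes, fell: it had 3848, 4248, 1530 and 3880 CPM on chow and 1750, 2433, 1551 and 1774 CPM on HFD (log2 -1.12 ± 0.16, adjusted p = 0.00349).

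**Figure D4:**
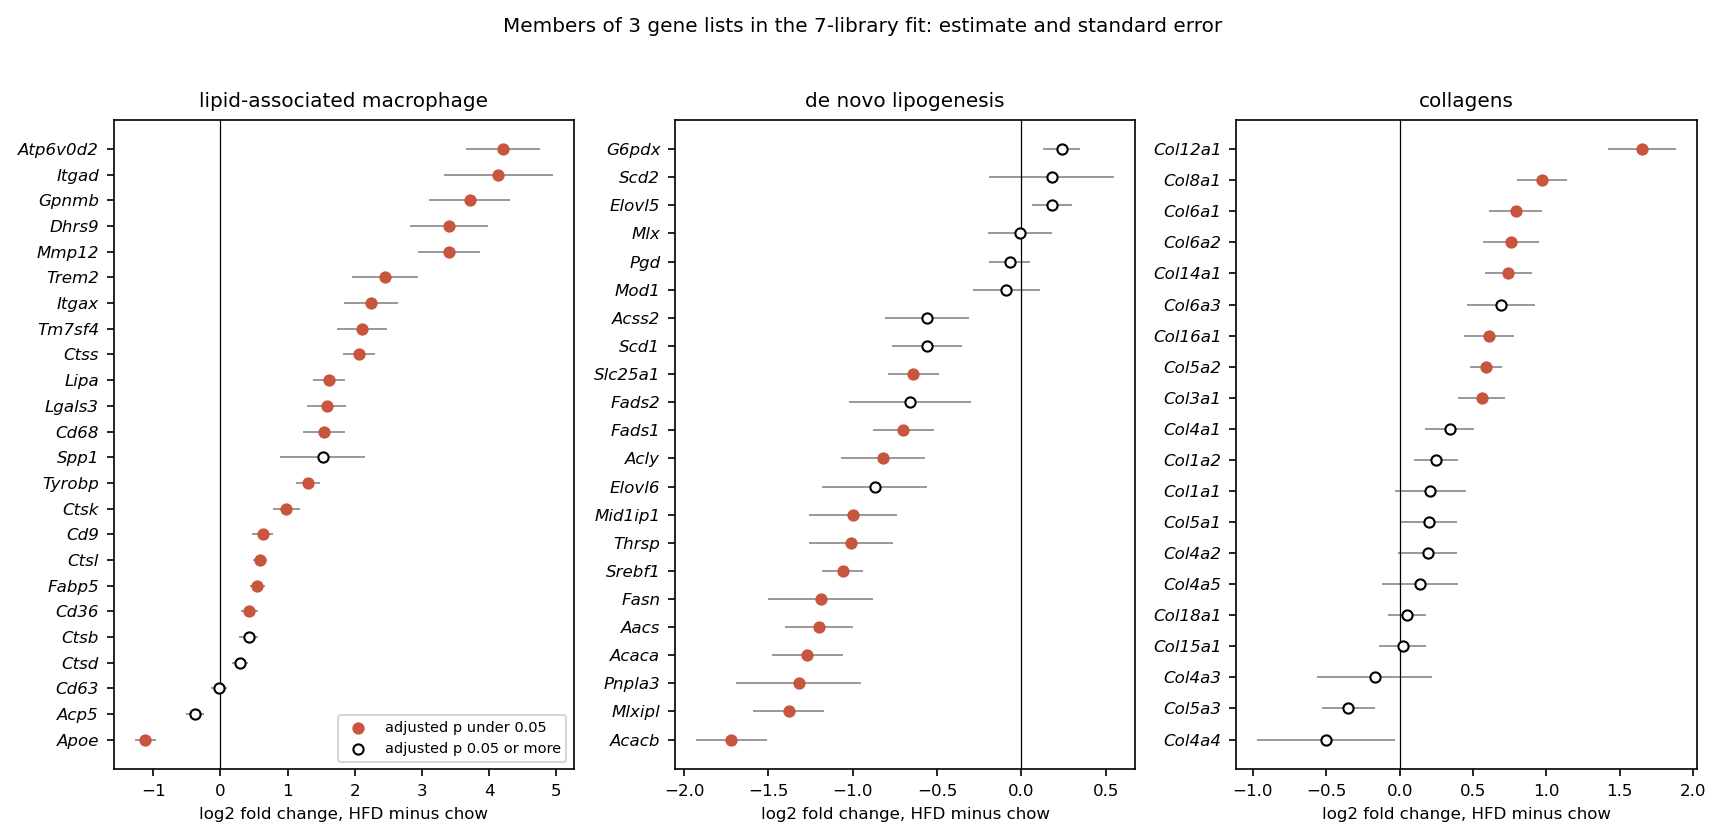
Log2 fold change (HFD minus chow, x axis) with its standard error for each tested member of 3 lists in the 7-library fit; filled points passed an adjusted p of 0.05. Lipid-associated macrophage genes run up to Atp6v0d2 (4.21) with Apoe (-1.12) as the single fall, lipogenic genes called are all falls down to Acacb (-1.72), and collagens called are all rises up to Col12a1 (1.65).

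The vesicular proton pump acidifies lysosomes, and 9 of its 22 tested subunits and accessory proteins were higher and 0 lower in the 7-library fit (median log2 0.29), against 15.6% of all genes higher. After correction for G+C content and length 6 of 22 were higher (11.7% of all genes). With all 29 libraries 6 of 24 were higher (6.69% of all genes) and 0 lower, and without chow library 3 there 1 was higher. The catalytic subunit gene Atp6v1a had 93.1, 92.56, 69.76 and 93.35 CPM on chow and 149.1, 142.7, 177.3 and 212.8 CPM on HFD, with no overlap. It rose 1.80-fold (adjusted p = 0.00591; 0.0115 in the 29-library fit). Atp6v1c1 rose 1.605-fold (adjusted p = 0.00315) and Atp6v1b2 1.72-fold (adjusted p = 0.00363). Atp6ap2, an accessory protein, rose 1.61-fold (adjusted p = 0.00403), but the rise did not pass after correction for G+C content and length (log2 0.26, adjusted p = 0.103).

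Promoter sequences are shown for 3 of the macrophage genes that rose together and for 1 pump subunit, because each holds a short motif of a transcription factor family active in such cells. The windows hold 250 bases before to 50 bases after the RefSeq start (GRCm38.p6, a later build than the mm9 gene positions), 5′ to 3′ on the gene's strand, with the motif in capitals. Gpnmb lies at chr6:49036268-49036567 (plus strand), Trem2 at chr17:48346151-48346450 (plus), Itgax at chr7:128129300-128129599 (plus) and Atp6v1a at chr16:44139210-44139509 (minus).
Gpnmb: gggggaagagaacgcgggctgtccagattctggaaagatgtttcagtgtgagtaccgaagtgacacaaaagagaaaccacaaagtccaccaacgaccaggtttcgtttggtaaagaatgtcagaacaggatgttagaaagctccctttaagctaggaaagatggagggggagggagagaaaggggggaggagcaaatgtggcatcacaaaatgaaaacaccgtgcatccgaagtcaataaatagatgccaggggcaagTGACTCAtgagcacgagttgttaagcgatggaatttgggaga
Trem2: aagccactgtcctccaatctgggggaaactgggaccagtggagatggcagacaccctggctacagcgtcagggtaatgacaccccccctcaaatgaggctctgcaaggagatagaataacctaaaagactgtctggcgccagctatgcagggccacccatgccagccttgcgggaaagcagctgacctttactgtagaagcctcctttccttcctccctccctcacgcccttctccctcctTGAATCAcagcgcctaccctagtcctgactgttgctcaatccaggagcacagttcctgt
Itgax: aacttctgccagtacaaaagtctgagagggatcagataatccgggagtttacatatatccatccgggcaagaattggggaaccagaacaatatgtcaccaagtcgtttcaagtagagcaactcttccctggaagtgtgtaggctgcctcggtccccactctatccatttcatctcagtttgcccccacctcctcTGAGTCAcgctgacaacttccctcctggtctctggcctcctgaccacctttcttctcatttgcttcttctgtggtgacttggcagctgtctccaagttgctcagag
Atp6v1a: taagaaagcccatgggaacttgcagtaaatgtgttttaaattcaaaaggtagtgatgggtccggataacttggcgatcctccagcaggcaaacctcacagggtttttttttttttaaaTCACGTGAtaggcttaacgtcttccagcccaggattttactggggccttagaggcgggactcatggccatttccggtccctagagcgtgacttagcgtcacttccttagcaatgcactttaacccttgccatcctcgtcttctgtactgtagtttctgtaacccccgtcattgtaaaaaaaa
The capitals mark TGANTCA, the AP-1 core, in the first 3, and TCACGTGA, the core of the element bound by lysosomal regulators of the TFEB family, in Atp6v1a. Both strands were searched, and both motifs and the windows shown were chosen after the expression values were known. TGANTCA was in 7.81% of 32851 mouse windows of this length, in 6 of 24 windows (25%) of the 18 lipid-associated macrophage genes matched, in 5 of 23 windows (21.7%) of the chemokine list, in 3 of 27 windows (11.1%) of the macrophage and monocyte list and in 1 of 24 windows (4.17%) each of the pump and lipogenic lists. TCACGTGA was in 0.974% of all windows and in 3 of 24 windows (12.5%) of the pump genes, in 1 of 24 windows each of the lipid-associated macrophage and lipogenic lists and in none of the other 2 lists. It contains the E-box CACGTG, present in 7.15% of all windows, in 4 of 24 pump windows, in 4 of 24 lipogenic windows, in 2 of 24 lipid-associated macrophage windows, in 1 of 23 chemokine windows and in 0 of 27 macrophage and monocyte windows. Of the other motifs searched, TTNNGCAA, a C/EBP core, was in 10.8% of all windows and GAGGAAGT, a PU.1 core, in 3.2%, against 6 (25%) and 3 (12.5%) of the 24 lipid-associated macrophage windows. A match describes letters in the window and not binding.

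Chemokines and inflammatory mediators rose in part. In the 7-library fit 11 of 28 tested were higher and 0 lower (median log2 0.62), against 15.6% of all genes higher. With all 29 libraries 9 of 30 were higher (6.69% of all genes) and 0 lower (median 0.86), and 1 of 28 was higher there without chow library 3. Their summed level was 631.6, 650, 313.9 and 653.6 CPM on chow and 1322, 1772, 1555 and 1995 CPM on HFD. Ccl2, the ligand of Ccr2, had 14.02, 11.47, 2.118 and 19.28 CPM on chow and 29.14, 41.08, 91.5 and 96.41 CPM on HFD. Its groups did not overlap and HFD libraries 3 and 4 were highest, a 4.24-fold rise (adjusted p = 0.0109; 0.0476 in the 29-library fit). Ccl9 rose 4.23-fold (adjusted p = 0.00217), the interleukin-1 receptor antagonist gene Il1rn 8.42-fold (adjusted p = 0.00188), and Il6 5.51-fold from 0.1986 to 0.5573 CPM on chow to 1.886 to 3.416 CPM on HFD (adjusted p = 0.00478). Tnf stayed under 1 CPM in all 8 libraries and overlapped (log2 -0.22 ± 0.36, adjusted p = 0.675). Il1b (adjusted p = 0.198) and Tgfb1 (adjusted p = 0.701) did not pass. Genes of antigen presentation by MHC class II were higher in 6 of 10 members tested and lower in 0 (median log2 0.68), again against 15.6% of all genes. H2-DMb1, which loads peptides onto class II molecules, rose 2.23-fold (adjusted p = 0.0032; 0.0426 in the 29-library fit, the 1 of 11 members called there). Few interferon-stimulated genes were called: 1 of 25 was higher and 2 were lower (median log2 -0.03), with 0 called in the 29-library fit.

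Lymphocyte genes had 4 of 26 members higher and 0 lower, near the 15.6% of all genes, and 1 of 27 in each direction in the 29-library fit. There 6.69% of all genes were higher and 10.2% lower. Il7r, an interleukin-7 receptor of lymphocytes and some myeloid cells, rose 8.80-fold (adjusted p = 0.00495), from 1.748 to 6.52 CPM on chow to 12.18 to 49.08 CPM on HFD. The T cell receptor subunit Cd3e was not higher: it had 0.9732 to 4.832 CPM on chow and 0.4833 to 0.9124 CPM on HFD (7-library log2 -0.94 ± 0.36, adjusted p = 0.08). It was called lower in the 29-library fit (log2 -1.65, adjusted p = 0.0361 by edgeR), a call lost there without chow library 3. Granulocyte and mast cell genes had 3 of 14 higher and 0 lower, and endothelial genes 0 of 18 higher and 1 lower (median log2 -0.32). Of 10 smooth muscle genes 5 were lower and 1 higher (median -0.82), against 12.5% of all genes lower. None of the granulocyte, endothelial or smooth muscle genes was called in the 29-library fit. Myh11, smooth muscle myosin, fell 2.05-fold (adjusted p = 0.0286), while Acta2, an actin shared with myofibroblasts, rose 1.78-fold (adjusted p = 0.00217).

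Cell cycle genes were higher in 18 of 25 members in the 7-library fit and lower in 0 (median log2 1.01), but in the 29-library fit 1 of 25 was higher and 0 lower (median 0.39). The shares of all genes higher were 15.6% and 6.69%. After correction for G+C content and length 11 of 25 were higher in the 7-library fit (11.7% of all genes). Chow library 3 had the highest summed level of this list (492.1 CPM), against 121.7 to 187.5 CPM in the other chow libraries and 269 to 346.8 CPM on HFD. The cyclin gene Ccnb1 had 2.166, 1.626, 22.94 and 2.096 CPM on chow and 8.637, 6.766, 6.697 and 7.533 CPM on HFD. Outside chow library 3 its groups were far apart, a 3.68-fold rise (adjusted p = 0.00197), while with chow library 3 the 29-library value was 0.04 ± 0.64. The proliferation antigen Mki67 rose 2.13-fold (adjusted p = 0.0368), which was lost after correction for G+C content and length (adjusted p = 0.0916).

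**Figure D5:**
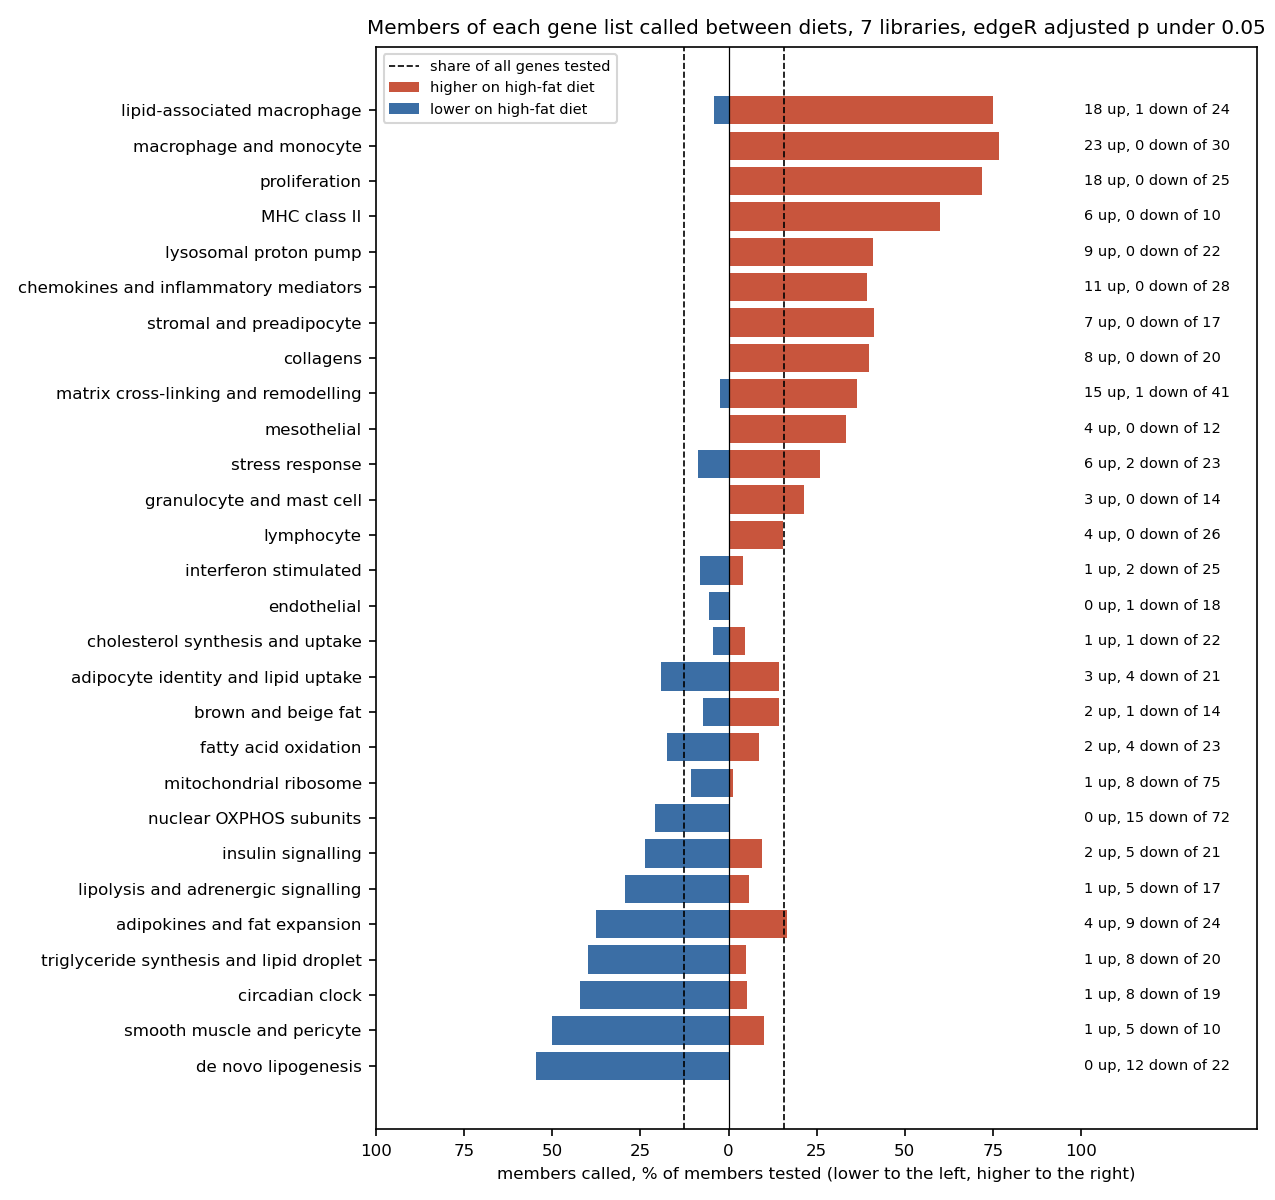
Share of tested members of 28 gene lists called higher (red, to the right) or lower (blue, to the left) on HFD in the 7-library fit, in percent, with dashed lines at the shares of all genes (15.6% higher and 12.5% lower). Macrophage, proliferation and MHC class II lists lie furthest to the right, and de novo lipogenesis furthest to the left with 12 of 22 lower.

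Genes of matrix were also higher. Of 20 collagens 8 were higher and 0 lower in the 7-library fit (median log2 0.29), which became 14 after correction for G+C content and length (11.7% of all genes). In the 29-library fit 3 were higher, 1 without chow library 3 and 0 after the correction. Of 41 genes of matrix cross-linking and remodelling 15 were higher and 1 lower (median 0.39), and 10 of 42 were higher and 0 lower in the 29-library fit (2 higher without chow library 3). Among all genes 15.6% were higher in the 7-library fit and 6.69% in the 29-library fit. In the latter the share was 2.91% without chow library 3 and 2.88% after the correction. Postn, periostin, a matrix protein of activated fibroblasts (chromosome 3, 54165031 to 54194961, plus strand, mm9), had 144.3, 135, 62.32 and 139 CPM on chow and 469.7, 359.8, 572.6 and 508.5 CPM on HFD. It rose 3.36-fold (log2 1.75 ± 0.16, adjusted p = 0.00185), with no overlap, and was called in the 29-library fit with chow library 3 (adjusted p = 0.00216) and without it (adjusted p = 0.0085). Lox, which cross-links collagen, had 37.43, 41.38, 10.82 and 41.96 CPM on chow and 94.52, 72.93, 82.2 and 101.7 CPM on HFD (2.14-fold, adjusted p = 0.00228). The protease inhibitor Timp1 rose 4.57-fold (adjusted p = 0.00185), the protease Mmp3 3.70-fold (adjusted p = 0.00185) and the lysyl hydroxylase Plod2 1.81-fold (adjusted p = 0.00289). Col12a1 rose 3.14-fold (adjusted p = 0.00342), Col6a1 1.72-fold (adjusted p = 0.0163) and Col3a1 1.47-fold (adjusted p = 0.0318). Col1a1, a chain of the main fibrillar collagen, overlapped, with 158.4 to 415.9 CPM on chow and 255.9 to 535.5 CPM on HFD (log2 0.21 ± 0.24, adjusted p = 0.528). Col6a3, the third chain of collagen VI and source of endotrophin, had 228, 156, 43.19 and 216 CPM on chow and 421.4, 218.1, 297.7 and 382 CPM on HFD. HFD library 2 fell within the chow range, and the difference did not pass (log2 0.69 ± 0.23, adjusted p = 0.0555).

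Of 17 stromal and preadipocyte genes 7 were higher and 0 lower (median log2 0.36). In the 29-library fit 4 of 17 were higher, and 2 there without chow library 3. Among all genes 15.6%, 6.69% and 2.91% were higher in these 3 fits. Sema3c, a secreted semaphorin of adipocyte progenitors, rose 2.65-fold (adjusted p = 0.00217; 0.00278 in the 29-library fit and 0.0126 there without chow library 3). Cd55, a complement inhibitor that marks early progenitors, rose 2.10-fold (adjusted p = 0.00228). Mesothelial genes, of the lining of the depot, were higher in 4 of 12 and lower in 0. After correction for G+C content and length 2 were higher (11.7% of all genes), and 0 in the 29-library fit. Podn, a small leucine-rich proteoglycan of the matrix that no list held and that was picked after its values were seen, went down. It had 119.4, 181.3, 53.45 and 147.6 CPM on chow and 37.95, 37.27, 42.16 and 34.97 CPM on HFD. All HFD libraries were below all chow libraries and close to one another (3.99-fold lower, adjusted p = 0.000772; 0.0156 in the 29-library fit).

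De novo lipogenesis moved down. In the 7-library fit 0 of 22 tested members were higher and 12 lower, against 12.5% of all genes lower, with a median log2 of -0.76. After correction for G+C content and length 11 were lower (10.2% of all genes), but 0 of 23 in the corrected 29-library fit (8.29% of all genes). In the 29-library fit 0 were higher and 2 of 23 lower (10.2% of all genes), with a median of -0.88, and 0 were lower without chow library 3. The summed level was 44200, 39250, 18000 and 54300 CPM on chow and 27420, 26040, 42780 and 26300 CPM on HFD. HFD library 3 lay within the chow range, mainly through Scd1, the abundant stearoyl-CoA desaturase, which had 32970, 31310, 10750 and 41420 CPM on chow and 21540, 21230, 34300 and 20130 CPM on HFD. Scd1 overlapped and did not pass (log2 -0.56 ± 0.21, adjusted p = 0.0795).

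Acetyl-CoA carboxylase makes malonyl-CoA, the first committed step. Acaca, the cytosolic form, had 536.5, 520, 384.2 and 623.2 CPM on chow and 202, 178.1, 347.5 and 217.6 CPM on HFD, with no overlap even with chow library 3. It fell 2.41-fold (log2 -1.27 ± 0.21, adjusted p = 0.00553). Its log2 difference in the 29-library fit, -1.13 ± 0.60, did not pass (adjusted p = 0.189). Acacb, the form at the mitochondrial surface, had 84.86, 122.3, 113.6 and 121 CPM on chow and 46.59, 35.5, 26.52 and 26.42 CPM on HFD. It fell 3.30-fold (adjusted p = 0.00246; 0.0412 in the 29-library fit), and chow library 3 was within its group. Fasn, fatty acid synthase (chromosome 11, 120667254 to 120685492, minus strand), had 4604, 2631, 2486 and 4939 CPM on chow and 1640, 1110, 2661 and 1863 CPM on HFD. HFD library 3 was just above chow library 2, so the groups overlapped, and the fall was 2.28-fold (adjusted p = 0.0224; 0.255 in the 29-library fit). The regulators followed the same direction in the 7-library fit. Srebf1, the insulin-responsive lipogenic factor, fell 2.09-fold (adjusted p = 0.0022), with 209.7 to 427.7 CPM on chow and 158.5 to 208.8 CPM on HFD. Mlxipl, encoding the glucose-responsive factor ChREBP, fell 2.60-fold (adjusted p = 0.00411), with 45.11 to 80.02 CPM on chow and 17.99 to 29.01 CPM on HFD. The citrate lyase Acly fell 1.77-fold (adjusted p = 0.0395), Thrsp 2.02-fold (adjusted p = 0.0188) and the carboxylase activator Mid1ip1 2.01-fold (adjusted p = 0.0235). The elongase Elovl6 (log2 -0.87 ± 0.31, adjusted p = 0.0683) and the desaturase Scd2 (log2 0.18 ± 0.37, adjusted p = 0.74) did not pass.

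Storage and release genes were lower in part. For triglyceride synthesis and the lipid droplet, 8 of 20 were lower and 1 higher (median log2 -0.34), 3 lower after correction for G+C content and length, and 1 of 21 lower in the 29-library fit. Among all genes 15.6% were higher and 12.5% lower in the 7-library fit. The share lower was 10.2% after the correction and 10.2% in the 29-library fit. Plin, the perilipin coating the adipocyte droplet, fell 1.64-fold (adjusted p = 0.00422) before and not after that correction (log2 -0.25, adjusted p = 0.217). Adfp, the perilipin 2 gene and the 1 riser, had 344.6, 331.5, 196.4 and 429 CPM on chow and 545.6, 604.7, 592.4 and 924.2 CPM on HFD (1.78-fold, adjusted p = 0.0172). HFD library 4 was highest, and the groups did not overlap. Of 17 lipolysis and adrenergic genes 5 were lower and 1 higher (median -0.37), 2 were lower after the correction, and 0 were called in the 29-library fit. Adrb3, the adipocyte beta-3 adrenergic receptor, had 647, 891.3, 244.9 and 738.3 CPM on chow and 350.7, 398.1, 182 and 246.8 CPM on HFD. Chow library 3 was the only chow library within the HFD range, and the fall was 2.63-fold (adjusted p = 0.00629; 0.173 in the 29-library fit). The lipases Lipe (1.59-fold, adjusted p = 0.00422) and Pnpla2 (1.72-fold, adjusted p = 0.0173) also fell.

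Adipocyte identity genes were mixed, with 3 of 21 higher and 4 lower in the 7-library fit, near the shares of all genes, 0 higher and 3 lower after correction for G+C content and length, and 0 called in the 29-library fit. The insulin-responsive glucose transporter gene Slc2a4 had 185.1, 212.5, 76.48 and 206.7 CPM on chow and 120.3, 118.6, 128.7 and 116.6 CPM on HFD. The HFD libraries lay close together below chow libraries 1, 2 and 4 and above chow library 3, a 1.69-fold fall (adjusted p = 0.00217; 0.483 in the 29-library fit). Cebpa fell 1.93-fold (adjusted p = 0.00247), a call lost after correction for G+C content and length (adjusted p = 0.0858), and Pparg, the adipocyte master regulator, fell 1.56-fold (adjusted p = 0.0376). Lpl (adjusted p = 0.838) and Fabp4 (adjusted p = 0.614) did not pass. Insulin signalling genes were lower in 5 of 21 and higher in 2 (median log2 -0.03), and in the 29-library fit 1 was higher and 0 lower. Among all genes 12.5% were lower and 15.6% higher in the 7-library fit, and 10.2% and 6.69% in the 29-library fit. Pik3ca rose 1.42-fold (adjusted p = 0.0131), lost after the same correction (adjusted p = 0.362), and the insulin receptor gene Insr did not pass (log2 -0.19 ± 0.13, adjusted p = 0.313).

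Among adipokines and genes of fat expansion, 4 of 24 were higher and 9 lower in the 7-library fit (median log2 -0.46), 5 higher and 4 lower after correction for G+C content and length, and 1 of 26 was higher and 1 lower in the 29-library fit. The shares of all genes were 15.6% higher and 12.5% lower in the 7-library fit, and 11.7% and 10.2% after the correction. In the 29-library fit they were 6.69% and 10.2%. Lep, leptin (chromosome 6, 29010220 to 29023877, plus strand), had 1816, 1382, 156 and 2906 CPM on chow and 3140, 2382, 5085 and 4872 CPM on HFD. Chow library 4 exceeded HFD library 2, and the difference did not pass (log2 0.90 ± 0.33, adjusted p = 0.0689; 1.31 ± 0.65, adjusted p = 0.162 in the 29-library fit). Adipoq, adiponectin, had 3482, 5618, 960.9 and 3967 CPM on chow and 3936, 5090, 3670 and 3539 CPM on HFD, overlapping throughout (log2 -0.13 ± 0.19, adjusted p = 0.641). Cfd, adipsin, a complement protease secreted by adipocytes, had 5446, 7221, 3592 and 6191 CPM on chow and 1009, 2687, 1368 and 899 CPM on HFD. Its groups did not overlap even with chow library 3, and it fell 4.29-fold (log2 -2.10 ± 0.35, adjusted p = 0.0053; 0.0345 in the 29-library fit). Mest, an imprinted gene of fat expansion, had 519.6, 459.8, 32.27 and 380.2 CPM on chow and 861.7, 896.1, 1231 and 1190 CPM on HFD (2.26-fold higher, adjusted p = 0.00422; 0.127 in the 29-library fit). Peg3, another imprinted gene, rose 3.21-fold (adjusted p = 0.00478), from 3.74 to 34.79 CPM to 58.8 to 90.08 CPM. Retn, resistin, fell 1.85-fold (adjusted p = 0.0318), the angiotensinogen gene Agt 2.02-fold (adjusted p = 0.00979) and the neuregulin Nrg4 1.81-fold (adjusted p = 0.0374). Sfrp5 (adjusted p = 0.152) and Npr3 (adjusted p = 0.116) did not pass.

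Brown fat genes were low outside chow library 3. Ucp1, the thermogenic uncoupling protein, had 231.8 CPM in chow library 3 and at most 0.3743 CPM in the other 7 libraries, too low to be tested in the 7-library fit, and its call in the 29-library fit (adjusted p = 0.00831) rested on chow library 3 (adjusted p = 0.487 without it). Cidea had 80.49 CPM in that library, 4.218 to 4.903 CPM in the other chow libraries and 1.338 to 2.382 CPM on HFD. Without chow library 3 it fell 2.34-fold (adjusted p = 0.00897). It was the 1 fall among 14 brown and beige fat genes tested in the 7-library fit, and 2 rose, against 12.5% lower and 15.6% higher among all genes. Otop1, a proton channel studied in fat, had 0.9289 to 1.759 CPM in chow libraries 1, 2 and 4, 11.05 CPM in chow library 3 and 4.672 to 10.51 CPM on HFD (5.21-fold without chow library 3, adjusted p = 0.00363). Epsti1, an interferon-responsive gene, had 7.523 to 9.006 CPM in chow libraries 1, 2 and 4, 14.6 CPM in chow library 3 and 13.84 to 16.79 CPM on HFD (1.80-fold, adjusted p = 0.00419). In the 29-library fit 2 of 20 were lower, Ucp1 and Cidea, near the 10.2% of all genes, and 0 without chow library 3 (1.94% of all genes).

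Mitochondrial genes encoded in the nucleus changed in modest steps. Of 72 subunits of oxidative phosphorylation 0 were higher and 15 lower in the 7-library fit (median log2 -0.17), 29 were lower after correction for G+C content and length (median -0.24), and 1 was lower in the 29-library fit. Their summed level overlapped, with 11470 to 14190 CPM on chow and 10510 to 13750 CPM on HFD. Ndufs7, a complex I subunit, fell 1.67-fold (adjusted p = 0.0056; 0.0257 in the 29-library fit), and its groups of 64.77 to 82.25 CPM and 42.46 to 59.18 CPM did not overlap. Of 75 mitochondrial ribosomal proteins 8 were lower and 1 higher, of 21 genes of the citric acid cycle 3 were lower and 2 higher, and of 23 genes of fatty acid oxidation 4 were lower and 2 higher, against 12.5% lower and 15.6% higher among all genes. After the correction the falls numbered 15, 2 and 2 and the rises 2, 0 and 1, and in the 29-library fit 2, 0 and 1 were lower and 0 higher. Among all genes 10.2% were lower and 11.7% higher after the correction, and 10.2% and 6.69% in the 29-library fit. Esrra, an orphan receptor driving mitochondrial genes, fell 1.82-fold (adjusted p = 0.00502; 0.00589 in the 29-library fit), but not after the correction (log2 -0.37, adjusted p = 0.124). Gabpa, another activator of such genes, rose 1.48-fold (adjusted p = 0.0123) and was likewise lost (log2 0.17, adjusted p = 0.165). Nnt, the mitochondrial transhydrogenase for which C57BL6/J is a known mutant, had 22.69 to 35.51 CPM in all 8 libraries and did not pass (log2 -0.12 ± 0.09, adjusted p = 0.343).

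Clock genes were lower in 8 of 19 and higher in 1 in the 7-library fit (median log2 -0.69; 5 lower after the correction), and 1 was higher and 1 lower in the 29-library fit. Among all genes 12.5% were lower in the 7-library fit, 10.2% after the correction and 10.2% in the 29-library fit. The time of day of collection was not given in the sources used here, and its part was not tested. Dbp, a clock output factor, had 41.46, 79.33, 40.77 and 7.486 CPM on chow and 15.27, 5.853, 9.843 and 3.429 CPM on HFD. Chow library 4 lay within the HFD range, and chow libraries differed among themselves by more than 10 times (fall of 5.06-fold, adjusted p = 0.0366, called in 2 of the 7 fits that left out a library). Clock itself rose 1.78-fold (adjusted p = 0.0164), a call lost after the correction (adjusted p = 0.124).

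Antioxidant genes went both ways, with 6 of 31 higher and 7 lower, against 15.6% and 12.5% of all genes. After correction for G+C content and length 3 were higher and 6 lower, and in the 29-library fit 0 of 33 were higher and 4 lower. The shares of all genes were 11.7% higher and 10.2% lower after the correction, and 6.69% and 10.2% in the 29-library fit. Hmox1, the heme oxygenase of macrophages and stressed cells, rose 2.16-fold (adjusted p = 0.00289). Gpx3, a secreted glutathione peroxidase, had 673.2, 1088, 4298 and 685.6 CPM on chow and 271.9, 425.5, 312.1 and 275.6 CPM on HFD, a 2.58-fold fall (adjusted p = 0.00422) with chow library 3 far above the rest. Of 23 stress response genes 6 were higher and 2 lower (1 in each direction in the 29-library fit), among them the chaperone Hspa5 (1.74-fold, adjusted p = 0.0105), while Atf4 did not pass (adjusted p = 0.521). Cholesterol synthesis had 1 of 22 higher and 1 lower in each fit. The squalene synthase gene Fdft1 fell 1.75-fold (adjusted p = 0.00461; 0.00958 in the 29-library fit).

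The 12 largest falls of the 29-library fit belonged to chow library 3. They were Crisp1, Defb22, Spint4, Wfdc13, Ces7, Defb23, Lcn5, Defb30, Ly6f, Wfdc10, an unnamed transcript and Prom2, most of them secreted proteins of the epididymis. Only Crisp1 and Lcn5 had enough counts to be tested in the 7-library fit, which leaves out that library and the other lines. Lcn5, an epididymal lipocalin, had 2040 CPM in chow library 3 and at most 1.422 CPM elsewhere. Epididymal genes were lower in 5 of 8 tested even in the 7-library fit (12.5% of all genes), where chow library 1 held 93.03 CPM of the list. Among the largest falls of the 7-library fit, most carried clone identifiers or older symbols of genes also listed under another name, between which the counting could split reads. The named genes among them, picked after their values were seen, included Cyp2f2, a xenobiotic-metabolising cytochrome P450, with 16.3, 5.248, 18.4 and 23.84 CPM on chow and 1.504 to 1.63 CPM on HFD (9.76-fold lower, adjusted p = 0.0032). Inmt, an indole and thioether methyltransferase, had 65.13, 141.7, 76.02 and 116.8 CPM on chow and 25.97, 25.29, 13.39 and 6.577 CPM on HFD (6.17-fold lower, adjusted p = 0.00517). Clic6 fell 10.4-fold (adjusted p = 0.0225), from 2.044 to 16.07 CPM on chow. Cyp2e1, a fat-expressed cytochrome P450, had 1195 to 2794 CPM on chow and 393.4 to 1723 CPM on HFD and did not pass (adjusted p = 0.0558).

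The response to diet was then compared with that of the other lines, as a difference of differences in the 29-library fit. Against C57n:C3Hmt, 0 of 17781 genes (0%) differed at an adjusted p of 0.05 by edgeR, 1269 had an unadjusted p under 0.05, and DESeq2 called 58. The smallest p belonged to Amph, an endocytosis protein (log2 -2.25 ± 0.49), Cyp4f39 (-2.85 ± 0.63) and Cys1 (-1.89 ± 0.43), each with an adjusted p of 0.617. All epididymal HFD libraries of C57n:C3Hmt came from the run of HFD library 4 of the C57 wild type, whose other HFD libraries came from another run. Line and HFD run were therefore largely tied in this comparison. With the HFD run as a covariate edgeR called 0 genes, and DESeq2 was not run with that term. Against C3H wild type, 0 genes (0%) differed by edgeR, 2343 had an unadjusted p under 0.05, and DESeq2 called 561. The smallest p belonged to the co-chaperone Stip1 (1.11 ± 0.21), Ints4 (0.61 ± 0.13) and Cyp21a1 (-6.90 ± 1.53), each with an adjusted p of 0.246. With each pair of lines alone, and no library over 10 times the median of summed epididymal genes, 0 genes were called in either comparison, with 1171 and 495 at an unadjusted p under 0.05. Left out were chow libraries 1 and 3 of this genotype, chow 1 and 4 of C57n:C3Hmt and HFD 1 of C3H wild type. Only chow libraries 2 and 4 of this genotype remained, so these fits had little power. The 29-library fits by edgeR and DESeq2 kept all the libraries left out here. The standard errors of single genes were wide. The log2 response of Gpnmb minus that in C57n:C3Hmt was 2.18 ± 1.48 (adjusted p = 0.846), and minus that in C3H wild type 2.22 ± 1.44 (adjusted p = 0.508). For Cfd these differences were -1.81 ± 0.86 (adjusted p = 0.689) and 0.18 ± 0.86 (adjusted p = 0.947). A difference in either direction was therefore not detectable for these genes, and the lines were not shown to respond alike.

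Against the inguinal depot of the same genotype, 102 of 18423 genes (0.554%) differed in response when all 59 fat libraries were fitted, 2 higher (0.0109%) and 100 lower (0.543%) in epididymal fat. Without chow library 3, 0 were called. The leading genes were Qrich2, Fhl4, Adam5, BC050210 and Adam3, with differences of -12.98 to -5.84 on the log2 scale carried by chow library 3. Most inguinal HFD libraries of this genotype came from the run of epididymal HFD library 4, and most epididymal ones from the other HFD run. All chow libraries of both depots shared a run. The depot difference is thus partly tied to run, no fit of it held a term for run, and the part of run was not tested. Library titles with the same number showed that 7 animals gave both depots, and the animal of chow library 3 was not among them. For some of these animals on HFD the depots were sequenced in different runs. With the animal as a block, 82 of 16018 genes (0.512%) differed, 31 higher (0.194%) and 51 lower (0.318%). Podn fell more in epididymal fat (difference -1.16 ± 0.11, adjusted p = 0.0359). Pla2g7, a secreted phospholipase of macrophages (1.14 ± 0.11), the adhesion protein gene Emb (1.36 ± 0.14), the adaptor subunit gene Ap1g2 (1.52 ± 0.14) and Rgs2, a G protein regulator (2.02 ± 0.20), rose more or fell less, each with an adjusted p of 0.0359. The epididymal levels of Pla2g7 were 22.04, 24.52, 56.3 and 20.51 CPM on chow and 70.56, 82.38, 48.45 and 88.43 CPM on HFD. In the same blocked fit the difference was 2.46 ± 0.38 for Gpnmb (adjusted p = 0.0495) and -0.69 ± 0.11 for Adrb3 (adjusted p = 0.0495). Mmp12 (1.26 ± 0.27, adjusted p = 0.0652), Cfd (-1.24 ± 0.26, adjusted p = 0.0659) and Fasn (0.92 ± 0.25, adjusted p = 0.0861) did not pass, nor did Saa3 (-0.91 ± 0.60, adjusted p = 0.37), Trem2 (0.48 ± 0.56, adjusted p = 0.626) or Emr1 (0.37 ± 0.27, adjusted p = 0.415).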

How the data were processed

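Gene-level expected counts, estimated with RSEM on mm9 per the submitters' processing notes (which also name DESeq2 1.10.1), were deposited by the authors as 1 table per diet. They were rounded to whole counts, and genes listed in 1 table alone (798 in the chow table, 358 in the HFD table) were set to 0 in the other. Genes passed edgeR's filter (minimum count 10, total 15, in 70% of the smallest group) and were tested with edgeR 4.0.16 (TMM scaling, quasi-likelihood test, Benjamini-Hochberg adjustment over all genes tested). The main fit held 29 epididymal libraries in 8 groups. The depot difference came from 59 fat libraries in 16 groups, or with the animal as a block. DESeq2 1.42.0, RLE scaling, a correction for G+C content and length, the HFD run as a covariate and left-out libraries were the alternatives. Percentages of mapped reads and of G+C were deposited by the authors in quality tables, whose software was not given in the sources used here. Simulated counts were also run through the test, and their outcome is not given here.

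The genotype and the gene lists were chosen with earlier results of these data known. Genes could be named if among the 12 largest rises or falls whose groups did not overlap with a mean of at least 5 CPM, if picked as genes known to respond to diet, or if among the called list members with the smallest p. Not all such genes are named in the text, and further list members were added after their values were seen. Library titles carry different numbers, read as animals. Nothing else says how samples were taken, so p-values measure the spread between these samples. Depth, from 16.65 to 27.19 M counts, limits the precision of low genes. Gene positions are from GENCODE's mm9 annotation, and promoter sequences are from RefSeq. Pairing of depots rested on title numbers. The 7 same-numbered pairs had correlations of deviations from 0.05 to 0.46, with 5 of 7 over 0.1.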

Additional observations from a re-analysis of the deposited data

Results flagged for a closer look

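A library was marked when its gap to the nearest other library of its diet was, as a share of the range of the 4, above Dixon's 95% critical value. Of 208 groups of 4 tested, 28 were marked (13.5%). The nominal rate of about 1 in 20 holds for independent, normally spread values. These were CPM values of overlapping lists and of picked genes, so that rate is no measure of chance here. Chow library 3 was the one apart in 17, HFD library 4 in 6, HFD library 3 in 3, and HFD libraries 1 and 2 in 1 each. No cause was tested.

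In chow library 3, summed levels were low for adipocyte identity (10530 CPM), lipid-associated macrophage (4965 CPM), chemokine (313.9 CPM), matrix remodelling (3637 CPM) and stromal genes (766.4 CPM). They were high for epididymal epithelium (18500 CPM), keratinocyte (697.6 CPM), brown fat (568.8 CPM), mesothelial (551.1 CPM) and lymphocyte genes (209.9 CPM). Single genes apart in that library were Crisp1 (7087 CPM), Ucp1 (231.8 CPM), Cidea (80.49 CPM) and Gpr50 (0.695 CPM) on the high side, and Npr3 (168.1 CPM), Postn (62.32 CPM) and Lox (10.82 CPM) on the low side.

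HFD library 4, the one from its own run, was high for Trem2 (66.95 CPM), Itgax (116.4 CPM), Atp6v0d2 (109.9 CPM), Emr1 (219.1 CPM), Adfp (924.2 CPM) and Gpr50 (27.1 CPM). HFD library 3 was high for lipogenesis (42780 CPM), for Scd1 (34300 CPM) and for the genes picked as diet-responsive (58030 CPM). HFD library 2 was high for antioxidant genes (8799 CPM), and HFD library 1 low for mesothelial genes (180.8 CPM).

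The response to diet differed between depots by the test of the difference for Qrich2 (-12.98, log2, epididymal minus inguinal), Adam3 (-8.89), Fhl4 (-8.35), Adam5 (-7.26) and BC050210 (-5.84), none of which was called without chow library 3. With the animal as a block it differed for Podn (-1.16), Pla2g7 (1.14), Emb (1.36), Ap1g2 (1.52) and Rgs2 (2.02). Depot and HFD run were partly tied, and the part of run was not tested.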

How the results depend on the processing

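The count of genes that differed between diets, 3003, was 1448 with the 8 libraries fitted alone and 1671 after correction for G+C content and length. It was 1146 without all 7 libraries with epididymal RNA, among them chow libraries 1 and 3 of this genotype. It ranged from 844 to 3161 when 1 of the 8 libraries was left out: 844 without chow library 3, 1172, 1337 and 1896 without HFD libraries 3, 4 and 1. The 7-library fit, which kept chow library 1, gave 4300 (4999 with DESeq2, 2887 after the correction) and 1975 to 4367 with 1 library left out, the lowest without chow library 4. DESeq2 (3948), RLE scaling (3093), no filter (3100), the HFD run as a covariate (2021) and genes in both tables only (3001) stayed within 1.5 times. So did the fit without the other lines' libraries with epididymal RNA, which called more genes (4442). The difference from C57n:C3Hmt, 0, was 58 with DESeq2 and 2 without the other lines' libraries with epididymal RNA, and 0 to 0 with 1 library left out. That from C3H wild type, 0, was 561 with DESeq2 and 0 to 1 with 1 library left out. The depot difference, 102, was 0 with the 16 libraries of this genotype alone, 388 with DESeq2, 82 with the animal as a replicate block (pairing by title number), and 0 to 394 with 1 library left out (0 without chow library 3, 1 without any HFD library, 356, 374 and 394 without chow libraries 1, 2 and 4). Of 138 genes picked for naming and with a value, 109 were called. The sign of Keap1 turned after the correction (0.01 in the 29-library fit, 0.03 in the 7-library fit), and that of Prom1 (0.16) in the 7-library fit without chow library 1 and without all libraries with epididymal RNA. The cause was not tested. No paired analysis was possible for diet because each animal had 1 diet and the labels give no replicate numbers.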

Other observations

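Lists not described above had these calls in the 7-library fit. Mitochondrial biogenesis had 2 of 22 higher and 3 lower, immediate early genes 3 of 18 higher and 2 lower, keratinocyte and mammary genes 1 of 6 higher and 1 lower, and striated muscle genes 2 of 12 higher and 2 lower, where 15.6% of all genes were higher and 12.5% lower. Of 4 Y-linked genes 2 were higher: Ddx3y had 15.79 to 46.68 CPM on chow and 61.54 to 132.5 CPM on HFD (2.47-fold, adjusted p = 0.00838 by edgeR), and Uty 10.92 to 18.25 CPM on chow and 22.5 to 32.13 CPM on HFD (1.53-fold, adjusted p = 0.017). Both were also called in the 29-library fit, and Uty was not after correction for G+C content and length (adjusted p = 0.646). Of 3 transcripts of the mitochondrial genome and Lars2, a gene whose reads often derive from ribosomal RNA, 0 were higher and 1 lower (2 of 3 tested after the correction). Of 36 genes picked as diet-responsive, with results of these data known, 14 were higher and 10 lower. Receptors that sense nucleic acids in endosomes of myeloid cells, picked after their values were seen, were higher: Tlr13 had 1.39 to 3.631 CPM on chow and 11.98 to 38.73 CPM on HFD (6.24-fold, adjusted p = 0.00608 by edgeR), and Tlr8 had 1.026 to 4.08 CPM on chow and 11.17 to 35.92 CPM on HFD (6.23-fold, adjusted p = 0.00398). Rgs1, a regulator of chemokine receptor signalling in leukocytes, had 2.085 to 4.18 CPM on chow and 20.38 to 54.31 CPM on HFD (10.2-fold, adjusted p = 0.0022). Duox1, which makes hydrogen peroxide, had 0.2648 to 1.208 CPM on chow and 5.048 to 9.276 CPM on HFD (6.27-fold, adjusted p = 0.00217). These 4 genes were drawn from the largest rises that were called in the 7-library fit without overlap there. Both traits were thus conditions of the choice. Each gene was called in the 7-library fit whichever library was left out.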
